A study of Mus musculus with 17 samples.

Results

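Matrix metalloproteinases (MMPs), ADAMTS proteases, ADAMTS-like proteins and tissue inhibitors of metalloproteinases (TIMPs) were measured in cells sorted from mouse brain and in cortex homogenate. Members were taken by symbol: every gene of the raw count matrix named Mmp, Adamts or Adamtsl with a number, or Timp with 1 digit. There were 43 such genes among 21640, comprising 15 MMPs, 19 ADAMTS proteases, 5 ADAMTS-like genes and 4 TIMPs. MMPs and ADAMTS proteases are zinc enzymes that cut the extracellular matrix. MMPs take collagens, gelatin, elastin and many other substrates, whereas several ADAMTS enzymes cut the proteoglycans that fill the matrix of brain and vessel wall, and others trim procollagens. TIMPs bind the active site and block these enzymes, and the ADAMTS-like proteins share the ancillary domains of the family but carry no protease domain.

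The study asked which genes arteriolar smooth muscle cells (aSMCs) express, in relation to contacts that axons make on them. RNA was sequenced from 17 samples. The 6 Ai47 aSMC samples were EGFP-positive cells sorted from SMACreER:Ai47 mice, and the 2 Ai14 aSMC samples were tdTomato-positive cells sorted from SMACreER:Ai14 mice. In both lines the smooth muscle actin promoter drives an inducible Cre that switches on the reporter. The 3 astrocyte samples were tdTomato-positive cells sorted from hGFAPCreER:Ai14 mice, in which the human GFAP promoter drives the Cre. The 6 cortex samples carry the genotype label WT and are labelled homogenates, so they hold all cortical cell types mixed. The study's text describes its cortex control as a part of the sorted mice's dissociated cortices, set aside before sorting. Which of these holds, and so whether cortex was dissociated or shared mice with the Ai47 aSMCs, could not be settled. The labels give no age and do not say whether the samples of a group came from separate mice. The study's text describes adult SMACreER:Ai47 mice and counts mice for its aSMC and cortex groups, and neither was given for the Ai14 aSMC and astrocyte samples. P-values measure only the spread between these samples.

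The libraries differed in depth and make-up. Ai47 aSMC libraries held 41499087 to 53643624 counts, Ai14 aSMC libraries 14870507 and 14979228, astrocyte libraries 4537137 to 7390630 and cortex libraries 5397905 to 7288036. Mitochondrial genes took 0.214 to 0.559% of counts in Ai47 aSMCs, 16.8 and 17.6% in Ai14 aSMCs, 10.7 to 12.5% in astrocytes and 35.7 to 72.9% in cortex. Levels are given as CPM, counts divided by a library size that was scaled by the TMM method, which takes most genes as unchanged between libraries, and the TMM factors were 0.423 to 0.551 in Ai47 aSMCs but 2.21 in both Ai14 aSMC libraries. A total of 3 counts over a group corresponds to 0.0213 CPM in Ai47 aSMCs, 0.0456 in Ai14 aSMCs, 0.0782 in astrocytes and 0.0689 in cortex, which are used as floors. Strand was not stated for the counting, so reads from overlapping genes cannot be told apart.

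The smooth muscle label was borne out by markers: all 9 smooth muscle genes of the list were higher than in cortex in both aSMC groups, with summed levels of 6259 to 7457 CPM in Ai47 aSMCs and 10200 to 11009 in Ai14 aSMCs, against 44.8 to 176 in cortex. The pericyte list summed to 2996 to 6051 CPM in Ai47 aSMCs and 7333 to 10433 in Ai14 aSMCs, against 263 to 745 in cortex. Fibroblast genes summed to 1544 to 2369 CPM in Ai47 aSMCs, against 110 to 152 in Ai14 aSMCs, and their part in the member results was not tested. Most of the Ai47 aSMC sum was Col1a1, a fibrillar collagen chain, with a mean of 1740 CPM in Ai47 aSMCs, against 2.0 in Ai14 aSMCs and 1.31 in cortex. Of 5 fibroblast genes tested against cortex in Ai47 aSMCs, 3 were higher and 1 was lower. Col1a2 (log2 fold change 3.71) and Col3a1 (1.87) were higher as well as Col1a1, and Dcn was not told apart from cortex (0.09). Pdgfra, a marker of fibroblasts and oligodendrocyte precursors, was lower and had no counts in Ai47 aSMCs. Lum had at most 1 count in any Ai47 aSMC library. The astrocyte label was not borne out against cortex. None of 7 astrocyte markers was higher in sorted astrocytes than in cortex and 2 were lower. Their sums were 1020 to 1568 CPM in astrocytes against 3309 to 18147 in cortex, and Gjb6 had no counts in astrocytes. The same markers summed to 6.33 to 22.7 CPM in Ai47 aSMCs and 148 to 240 in Ai14 aSMCs. The immediate early genes, which respond to stimulation and to cell dissociation, summed to 3161 to 4619 CPM in Ai47 aSMCs, 4002 to 5861 in Ai14 aSMCs and 80.5 to 1488 in astrocytes, against 141 to 445 in cortex.

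A property of the Ai47 aSMC columns bears on every result that uses them. Of 12275 genes with a mean raw count of at least 10 in the 6 Ai47 aSMC libraries, 102 had a range of counts no wider than the square root of the mean, less than 6 separate samplings of molecules would usually give, and in cortex 0 of 11212 genes had this property. Members of this kind were Adamtsl3, with 56770 to 56774 counts, Mmp16 with 300 to 302, Timp1 with 25 to 26 and Mmp2 with 17 to 20. The other members fell outside the definition, for example Adamts1 with 3763 to 12440 counts. Some of them still had near-equal counts in most columns. Mmp19 had 131, 130, 133, 156, 134 and 200 counts in libraries 1 to 6. Adamtsl5 had 10, 52, 17, 51, 52 and 52. The definition therefore does not take in every member with repeated counts. The definition was set after the data were seen, and the cause was not tested. Comparisons of Ai47 aSMCs were therefore also computed with the 6 columns averaged into 1 library.

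**Figure D1:**
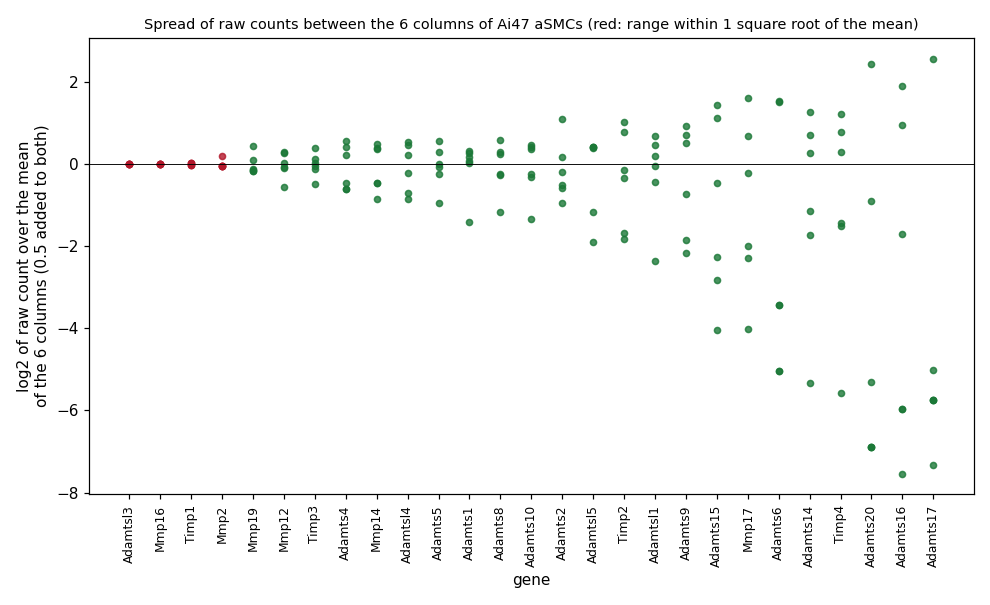
Raw count in the 6 Ai47 aSMC libraries, as log2 of the count over the mean of the 6, for each member with a mean raw count of at least 10 there. Red marks the members whose counts range over no more than the square root of their mean. Adamtsl3, Mmp16, Timp1 and Mmp2 lie on or close to 0, while other members spread.

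More members reached 1 CPM in the sorted aSMCs than in cortex, and fewest did in sorted astrocytes. A mean of at least 1 CPM was reached by 25 members in Ai47 aSMCs, 24 in Ai14 aSMCs, 14 in astrocytes and 19 in cortex. No count at all was found for 0 members in Ai47 aSMCs, 7 in Ai14 aSMCs, 15 in astrocytes and 2 in cortex, at depths that differ as given above. Over all genes, 15231 to 15802 had counts in an Ai47 aSMC library and 17021 and 16882 in the Ai14 aSMC libraries. In astrocyte libraries 9083 to 12827 had counts, and in cortex libraries 12164 to 15941. The number of all genes at 1 CPM was not computed, so these member counts are descriptions. The 11 members that reached 1 CPM in no group and passed no test were Adamts3, Adamts7, Adamts13, Adamts18, Adamts19, Mmp8, Mmp9, Mmp21, Mmp23, Mmp25 and Mmp28. These include Mmp9, the gelatinase B of inflamed vessels, and Adamts13, the protease of von Willebrand factor. The remaining 32 are described below by role.

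**Figure D2:**
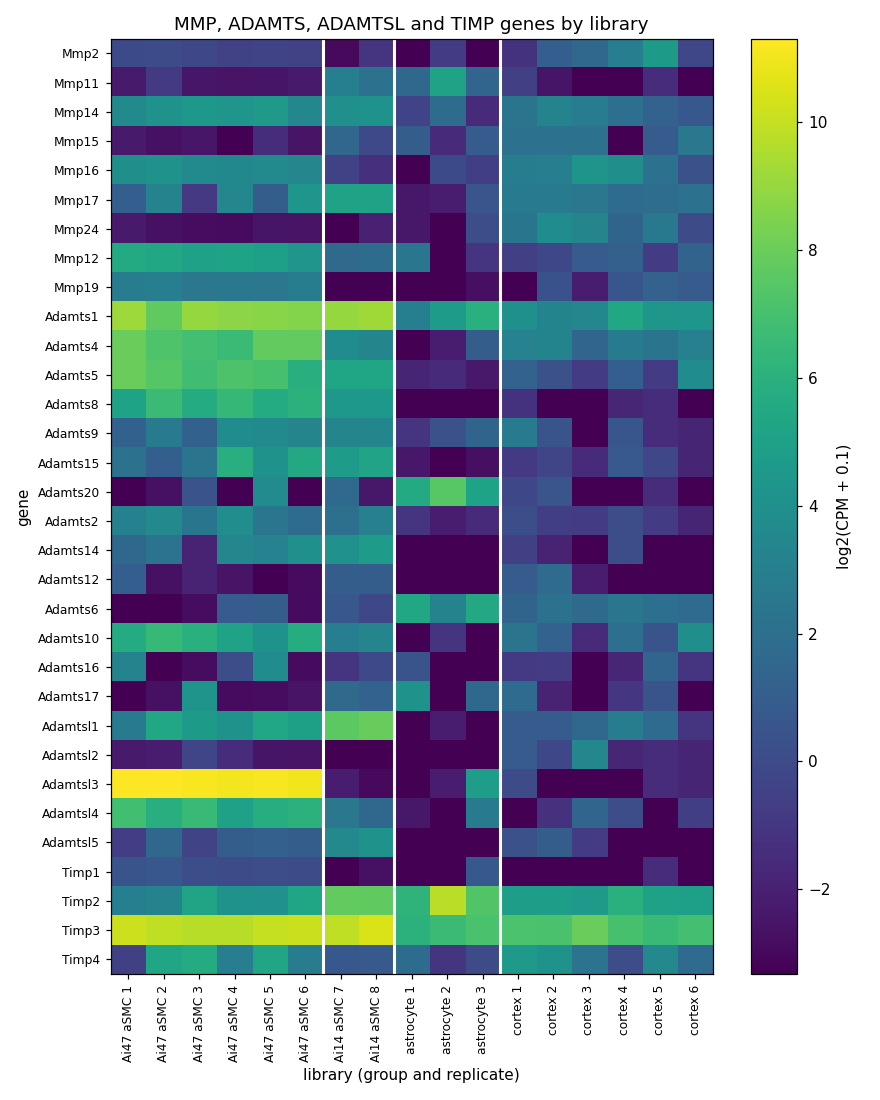
Level of the 32 members that reached a mean of 1 CPM in a group or passed a test, as log2(CPM + 0.1), in each of the 17 libraries (columns, grouped). Adamtsl3 is bright in the 6 Ai47 aSMC libraries and Timp3 is bright in both aSMC groups.

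Each sorted group was set against cortex. In Ai47 aSMCs 17 of 26 tested members rose and 2 fell at an edgeR adjusted p under 0.05, where 33.6% of all 11548 genes tested rose and 25% fell. In Ai14 aSMCs 11 of 31 tested members rose and 1 fell, where 3.97% of all 14927 genes rose and 2% fell. In astrocytes 4 of 31 rose and 12 fell, where 14.6% of all genes rose and 19.8% fell. With the astrocyte and cortex groups fitted alone 4 of 20 tested members were higher and 2 lower, and with 6 libraries, 3 of each group, 2 of 16 were higher and 0 lower. The members that passed in either direction were 73.1% of those tested against 58.6% of all genes in Ai47 aSMCs, 38.7% against 5.97% in Ai14 aSMCs and 51.6% against 34.5% in astrocytes. The median log2 fold change of the tested members was 3.09 in Ai47 aSMCs, 1.79 in Ai14 aSMCs and -2.69 in astrocytes, against medians over all genes of 0.324, 0.321 and -0.0833, and the astrocyte median was -1.74 with members at 0 in 1 group set to their bound. A member that entered the test only because it is high in 1 group had to differ, so these counts and medians are descriptions. All 3 comparisons used the same 6 cortex libraries. With library totals in place of TMM the split of higher to lower members was 14 to 4 in Ai47 aSMCs and 6 to 8 in astrocytes, and with DESeq2 size factors it was 7 to 2 in Ai14 aSMCs. In bulk samples, fewer cells of a type and less RNA per cell cannot be told apart.

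**Figure D3:**
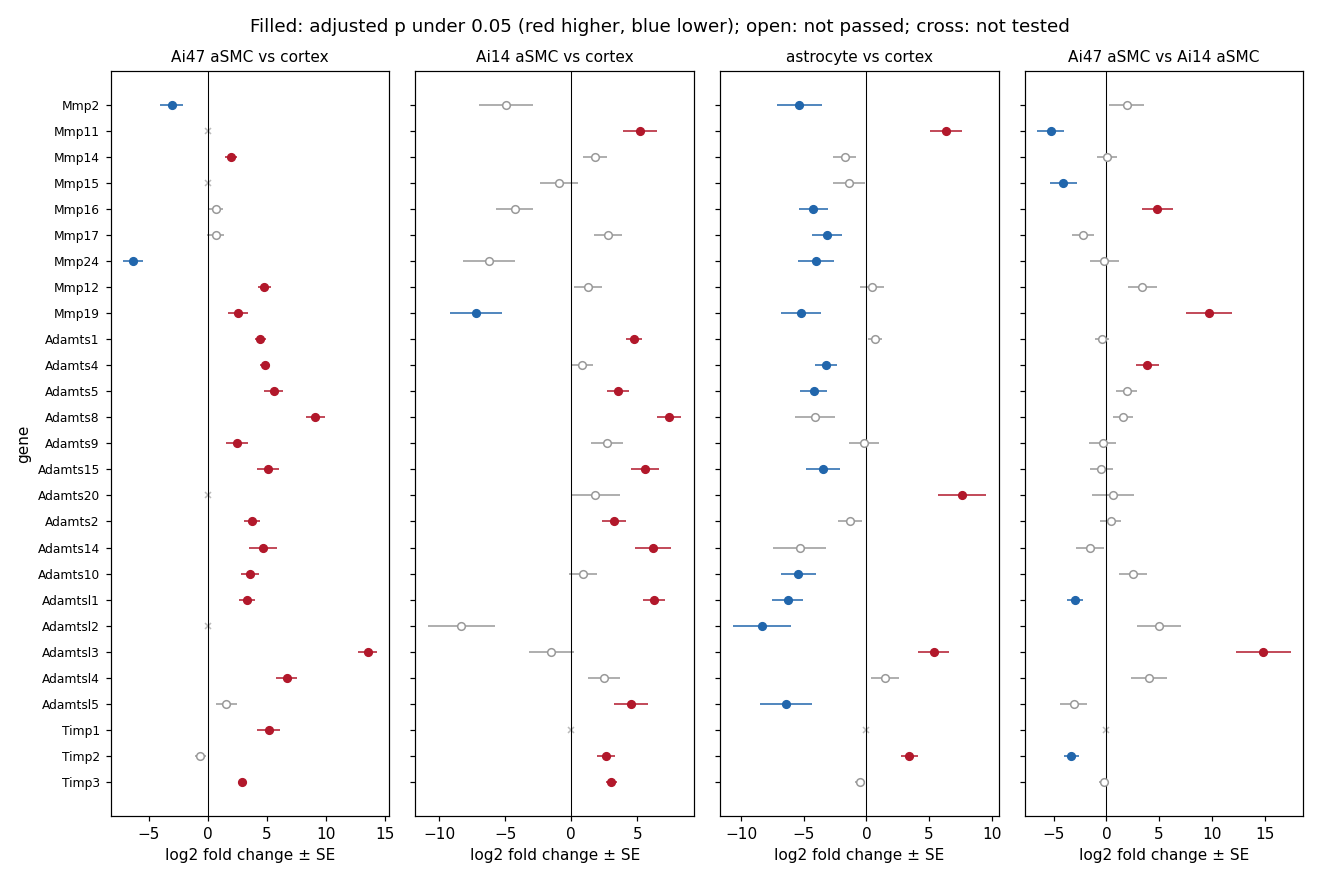
Log2 fold change with its standard error, in the 4 comparisons (panels), for each member that passed in any of them. Filled red and blue points passed an edgeR adjusted p under 0.05 as higher and lower, open points did not pass, and crosses were not tested. Against cortex, 17 points are filled red for Ai47 aSMCs and 11 for Ai14 aSMCs, and 12 of 16 filled points for astrocytes are blue.

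The sequences before the start of members were read from RefSeq promoters of GRCm38.p6. A window of 250 bases was found for 28 of 43 members, as 30 windows. Shown are the windows of Adamts1, high in both aSMC groups, Adamtsl3, high in Ai47 aSMCs, Adamts20, high in astrocytes, and the second start of Mmp12, the only member window with an AP-1 motif. Capitals mark GC boxes (GGGCGG or CCGCCC) in the first 3 and the AP-1 motif (TGANTCA) in the last. The Adamts20 and Mmp12 windows lie inside the span of their GENCODE gene models.
Adamts1, chr16:85803114-85803363, minus strand: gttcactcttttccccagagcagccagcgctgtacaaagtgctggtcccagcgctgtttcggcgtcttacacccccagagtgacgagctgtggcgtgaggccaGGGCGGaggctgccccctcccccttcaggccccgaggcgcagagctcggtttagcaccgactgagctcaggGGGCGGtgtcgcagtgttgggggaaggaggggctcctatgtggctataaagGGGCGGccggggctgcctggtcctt
Adamtsl3, chr7:82335444-82335693, plus strand: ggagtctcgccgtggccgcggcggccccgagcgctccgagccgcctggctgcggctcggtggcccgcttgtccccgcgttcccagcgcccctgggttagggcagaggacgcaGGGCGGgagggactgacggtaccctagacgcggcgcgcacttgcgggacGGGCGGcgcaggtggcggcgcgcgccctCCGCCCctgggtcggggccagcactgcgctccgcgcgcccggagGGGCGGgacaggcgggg
Adamts20, chr15:94404351-94404600, minus strand: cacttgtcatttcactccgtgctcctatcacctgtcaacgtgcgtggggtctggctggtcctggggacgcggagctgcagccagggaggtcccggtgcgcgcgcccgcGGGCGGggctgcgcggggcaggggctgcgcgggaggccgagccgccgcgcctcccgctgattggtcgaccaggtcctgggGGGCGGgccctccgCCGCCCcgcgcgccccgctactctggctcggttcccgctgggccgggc
Mmp12 second start, chr9:7347124-7347373, plus strand: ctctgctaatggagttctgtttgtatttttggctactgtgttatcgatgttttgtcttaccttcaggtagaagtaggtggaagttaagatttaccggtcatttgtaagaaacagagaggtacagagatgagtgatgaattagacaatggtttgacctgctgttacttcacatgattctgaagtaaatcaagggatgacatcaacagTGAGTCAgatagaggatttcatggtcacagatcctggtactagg

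The first 3 windows are rich in G and C, with 65.6% in Adamts1, 80.0% in Adamtsl3 and 76.4% in Adamts20, against 39.6% in the Mmp12 window. Over both strands, a GC box was in 20 of 30 member windows (66.7%), against 32.7% of the 32851 windows of all genes. The AP-1 motif was in 1 of 30 (3.33%), against 6.75% of all windows, and its first base lies 44 bases before the second Mmp12 start. The CArG box, the motif of serum response factor, was in 0 of 30 member windows, against 1.47% of all windows. The median GC content was 63.4% in member windows and 52.4% in all. Of the 8 members higher in both aSMC groups 4 had a window, and all 4 held a GC box. A match to these letters is a description of the window, and no match says only that the letters are not in it.

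The inhibitors were led by Timp3, the TIMP that binds to the matrix and inhibits ADAMTS enzymes as well as MMPs (ENSMUSG00000020044.13, chr10:86300372-86349506, plus strand, GRCm38). Timp3 had 858, 982 and 1164 CPM as lowest, median and highest in Ai47 aSMCs, 965 and 1401 in Ai14 aSMCs, 66.6, 102 and 136 in the 3 astrocyte libraries, and 95.3, 134 and 249 as lowest, median and highest in cortex. Every aSMC library was above every cortex and astrocyte library, and astrocytes and cortex overlapped. The log2 fold change against cortex was 2.87 in Ai47 aSMCs (SE 0.26, edgeR adjusted p = 1.08e-07) and 3.01 in Ai14 aSMCs (SE 0.41, edgeR adjusted p = 9.33e-05). Between Ai47 and Ai14 aSMCs it was -0.25 (SE 0.44, edgeR adjusted p = 0.728). Timp3 lies within the span of Syn3 on the other strand, 21.3% of its exon length overlaps exons of that gene, and Syn3 was itself listed at 96.0 CPM in Ai47 aSMCs, 36.2 in Ai14 aSMCs, 0.487 in astrocytes and 6.46 in cortex, so part of the reads cannot be told apart.

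Timp2, the inhibitor that also takes part in activating pro-Mmp2 with Mmp14, showed another order. Its levels were 7.81, 17.4 and 39.0 CPM as lowest, median and highest in Ai47 aSMCs, 217 and 211 in Ai14 aSMCs, 72.2, 894 and 158 in astrocyte libraries 1 to 3, and 24.1, 29.9 and 62.5 as lowest, median and highest in cortex. All Ai14 aSMC and astrocyte libraries were above all cortex libraries, and Ai47 aSMCs overlapped cortex. Timp2 rose in astrocytes (log2 fold change 3.44, SE 0.65, edgeR adjusted p = 0.000609) and in Ai14 aSMCs (2.63, SE 0.70, edgeR adjusted p = 0.0292), and did not pass in Ai47 aSMCs (-0.67, SE 0.47, edgeR adjusted p = 0.233). It was lower in Ai47 than in Ai14 aSMCs by a log2 difference of -3.33 (SE 0.70, edgeR adjusted p = 0.00169), or -2.69 and -2.70 without Ai47 aSMC libraries 1 and 2. The astrocyte call was lost without astrocyte library 2, where the log2 fold change was 1.54 (edgeR adjusted p = 0.0536). The Ai14 aSMC call was lost without either Ai14 aSMC library and without any 1 of cortex libraries 1, 2, 3, 5 and 6, where the log2 fold change lay between 2.24 and 2.36. That call was also lost with DESeq2, with DESeq2 size factors, without mitochondrial genes, with no filter and with a 1 CPM filter. It was kept in 3 of 16 alternatives.

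Timp1 and Timp4 were at lower levels. Timp1, an inducible inhibitor of soluble MMPs, had 0.921 to 1.48 CPM in the 6 Ai47 aSMC libraries and 1 count in 1 of the 6 cortex libraries, a ratio of 47.4 with a 95% counting interval of 8.38 to 1884. The test passed (edgeR adjusted p = 0.000278), but Timp1 is among the genes with near-equal raw counts and the adjusted p was 0.209 with the Ai47 aSMC columns as 1 library. Timp4, the inhibitor known from heart and vessel, ranged over 0.576 to 51.4 CPM in Ai47 aSMCs, 1.52 and 1.61 in Ai14 aSMCs, 0.381 to 3.56 in astrocytes and 0.989 to 23.9 in cortex. It passed in none of the 4 comparisons.

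The aggrecanase-type ADAMTS proteases, which cut proteoglycans such as aggrecan, versican and brevican, had 7 members. In Ai47 aSMCs all 6 tested members of this subgroup rose, namely Adamts1, Adamts4, Adamts5, Adamts8, Adamts9 and Adamts15, where 33.6% of all genes tested rose. Adamts20 was not tested there. In Ai14 aSMCs 4 of 7 tested rose, Adamts1, Adamts5, Adamts8 and Adamts15, where 3.97% of all genes rose.

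Adamts1, which cuts versican and aggrecan, whose window with 3 GC boxes is shown above, was the protease with the highest level per kilobase of exon in both aSMC groups (chr16:85793827-85803113, minus strand, GRCm38). It had 214, 426 and 582 CPM as lowest, median and highest in Ai47 aSMCs, 514 and 597 in Ai14 aSMCs, 7.77, 25.6 and 62.1 in astrocytes, and 9.39, 18.6 and 43.1 as lowest, median and highest in cortex. No aSMC library overlapped cortex or astrocytes. Adamts1 rose by a log2 fold change of 4.44 in Ai47 aSMCs (SE 0.45, edgeR adjusted p = 3.57e-07) and 4.78 in Ai14 aSMCs (SE 0.61, edgeR adjusted p = 5.4e-05), and the 2 aSMC groups were not told apart (-0.40, SE 0.64, edgeR adjusted p = 0.701). Its neighbour Adamts5, 53.1 kb away on the same chromosome, encodes the other major aggrecanase. Adamts5 had 60.4, 138 and 247 CPM as lowest, median and highest in Ai47 aSMCs, 38.5 and 38.8 in Ai14 aSMCs, 0.187, 0.254 and 0.101 in astrocytes, and 0.499, 1.55 and 13.6 as lowest, median and highest in cortex. It rose in Ai47 aSMCs (log2 fold change 5.56, SE 0.81, edgeR adjusted p = 1.86e-05) and Ai14 aSMCs (3.54, SE 0.84, edgeR adjusted p = 0.0129), and fell in astrocytes (-4.22, SE 1.09, edgeR adjusted p = 0.00585). Cortex library 6 held the cortex maximum, and without it the Ai47 aSMC change was 7.04, the Ai14 aSMC change 4.68 and the astrocyte change -2.95. The Ai14 aSMC call was lost without either Ai14 aSMC library (log2 fold changes of 3.28 and 3.21) and without any 1 of cortex libraries 1 to 5 (2.999 to 3.13). That call was also lost with DESeq2 size factors, and was kept in 7 of 16 alternatives.

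Adamts8 and Adamts15, which lie 20.1 kb apart on chromosome 9, were close to absent outside aSMCs. Adamts8 had 35.2, 59.6 and 102 CPM as lowest, median and highest in Ai47 aSMCs, 22.1 and 21.7 in Ai14 aSMCs, no counts in the 3 astrocyte libraries, and 0, 0.0989 and 0.342 as lowest, median and highest in cortex. The mean in Ai47 aSMCs was 490-fold and in Ai14 aSMCs 165-fold that of cortex, which rests on 5 cortex counts. It rose in both (log2 fold change 9.08, SE 0.78, edgeR adjusted p = 4.56e-08 in Ai47 aSMCs, and 7.40, SE 0.94, edgeR adjusted p = 8.09e-05 in Ai14 aSMCs), with values of 9.94 in Ai47 aSMCs without cortex library 1 and 6.78 in Ai14 aSMCs without cortex library 2. Adamts15 had 1.99, 11.1 and 58.6 CPM as lowest, median and highest in Ai47 aSMCs, 25.8 and 37.0 in Ai14 aSMCs, 0.0936, 0 and 0.0505 in astrocytes, and 0.189, 0.586 and 1.58 as lowest, median and highest in cortex. It rose in Ai47 aSMCs (log2 fold change 5.08, SE 0.94, edgeR adjusted p = 0.000191) and in Ai14 aSMCs (5.58, SE 1.07, edgeR adjusted p = 0.00246), with no library of either group below the highest cortex library. The Ai47 aSMC change was 4.48 without Ai47 aSMC library 4 and 5.67 without cortex library 4. In astrocytes Adamts15 had 2 counts in all, a ratio to cortex of 11.9-fold lower with a 95% counting interval of 2.99 to 103, and its call (edgeR adjusted p = 0.0492) was lost without any 1 of the 3 astrocyte libraries or of cortex libraries 2, 4 and 5.

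Adamts4 is the other main aggrecanase. Its levels were 99.3, 186 and 251 CPM as lowest, median and highest in Ai47 aSMCs, 13.9 and 10.003 in Ai14 aSMCs, 0, 0.127 and 1.87 in astrocytes, and 2.62, 7.42 and 9.55 as lowest, median and highest in cortex. Ai14 aSMCs were just above the highest cortex library, while every Ai47 aSMC library was far above both. Adamts4 rose in Ai47 aSMCs against cortex (log2 fold change 4.82, SE 0.41, edgeR adjusted p = 4.65e-08), not detectably in Ai14 aSMCs (0.81, SE 0.81, edgeR adjusted p = 0.651), and was higher in Ai47 than in Ai14 aSMCs by 3.89 (SE 1.09, edgeR adjusted p = 0.0122). That last call was lost with library totals in place of TMM (1.67, edgeR adjusted p = 0.244), with the 6 Ai47 aSMC columns as 1 library (4.13, edgeR adjusted p = 0.217) and without either Ai14 aSMC library, with values of 4.52 and 4.10, and the difference was 4.49 and 4.53 without Ai47 aSMC libraries 3 and 4. In astrocytes Adamts4 fell by 3.24 on the log2 scale (SE 0.89, edgeR adjusted p = 0.00872), and by 6.83 without astrocyte library 3. The fall was lost with library totals (-2.27, edgeR adjusted p = 0.0907), with the astrocyte and cortex groups alone (-3.28, edgeR adjusted p = 0.109) and in both fits on 6 libraries (-5.30 and -3.45, edgeR adjusted p = 0.427 and 0.272). Adamts9, a versican-cutting enzyme, had 2.19 to 13.6 CPM in Ai47 aSMCs, 10.1 and 10.4 in Ai14 aSMCs, 0.375 to 2.53 in astrocytes and 0 to 6.04 in cortex. Its rise in Ai47 aSMCs (log2 fold change 2.46, SE 0.96, edgeR adjusted p = 0.0373) was lost in 10 alternatives, including without any 1 of Ai47 aSMC libraries 4, 5 and 6 or cortex libraries 2, 4, 5 and 6 (2.21 to 2.56), and was 3.74 without cortex library 1.

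Adamts20, related to Adamts9 and known in mice for its part in pigment cell spread, was the protease that marked the astrocyte libraries (chr15:94270163-94465418, minus strand, GRCm38). It had 49.0, 185 and 35.1 CPM in astrocyte libraries 1 to 3, against 0, 0.129 and 1.35 as lowest, median and highest in cortex. Ai47 aSMCs had 0, 0.0285 and 12.9 as lowest, median and highest, and Ai14 aSMCs 3.07 and 0.0909. Every astrocyte library was above every other library, and the log2 fold change against cortex was 7.64 (SE 1.91, edgeR adjusted p = 0.00475), or 6.51 without astrocyte library 2 and 8.54 without cortex library 2.

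**Figure D4:**
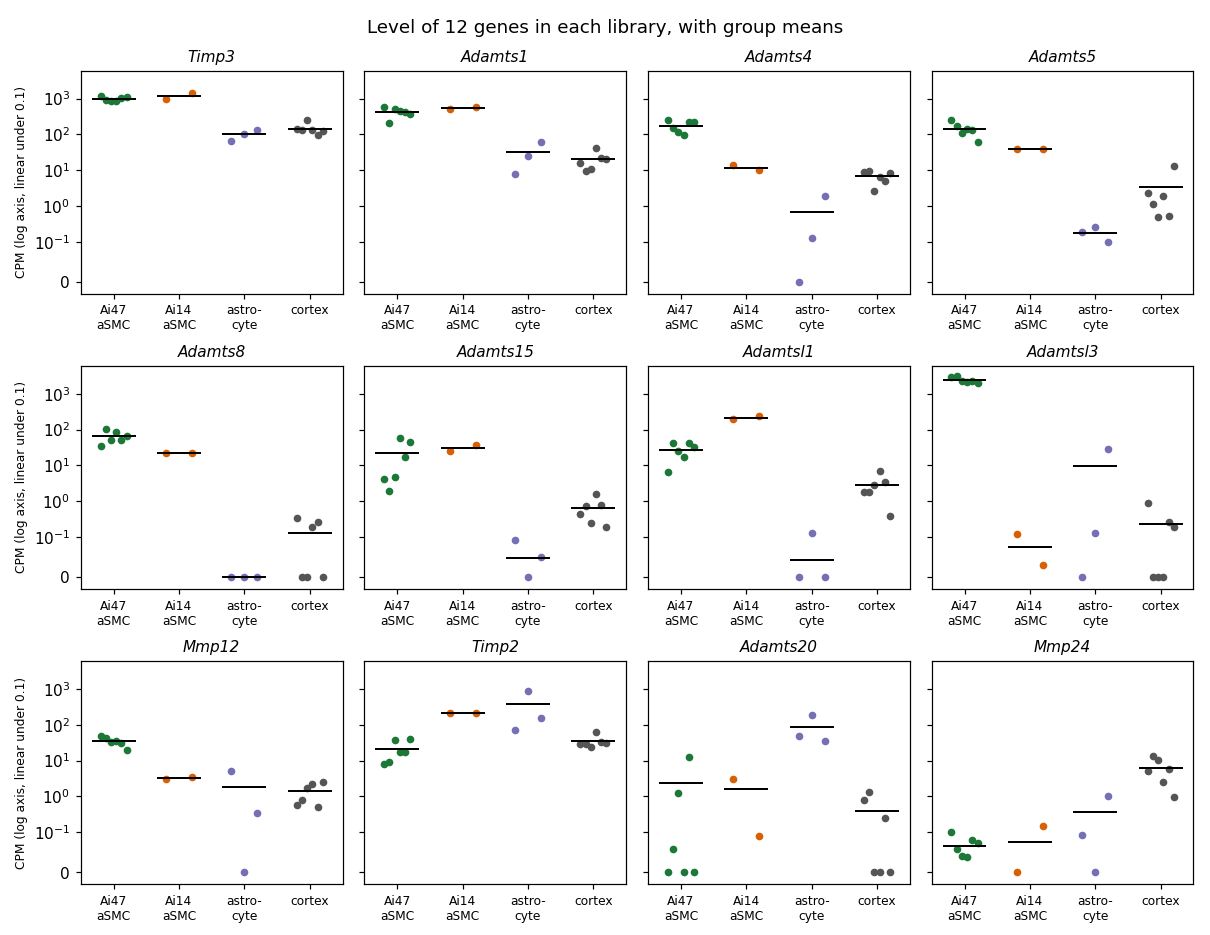
CPM of 12 members in each library (dots), with the group mean as a line, for Ai47 aSMC, Ai14 aSMC, astrocyte and cortex from left to right. The axis is linear near 0 and logarithmic above. Timp3 and Adamts1 are high in both aSMC groups, Adamtsl3 and Adamts4 are high in Ai47 aSMCs, and Adamts20 is high in astrocytes.

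The procollagen N-proteinases Adamts2 and Adamts14, which remove the amino-terminal propeptides of fibrillar collagens, both rose in aSMCs. Adamts2 had 3.42, 6.75 and 14.3 CPM as lowest, median and highest in Ai47 aSMCs, 4.05 and 8.0 in Ai14 aSMCs, 0.375, 0.127 and 0.253 in astrocytes, and 0.189, 0.537 and 1.03 as lowest, median and highest in cortex. No aSMC library overlapped cortex (log2 fold change 3.75, SE 0.68, edgeR adjusted p = 0.000162 in Ai47 aSMCs, and 3.24, SE 0.91, edgeR adjusted p = 0.0365 in Ai14 aSMCs). The Ai14 aSMC call was lost without any 1 of the 2 Ai14 aSMC or 6 cortex libraries, with values of 2.41 to 3.45. That call was also lost with DESeq2 size factors, with no filter, with a 1 CPM filter and with the 2 groups fitted alone. It was kept in 3 of 16 alternatives. Adamts14 had 0.162 to 15.9 CPM in Ai47 aSMCs, 16.5 and 25.7 in Ai14 aSMCs, no counts in astrocytes and 0 to 0.989 in cortex. It rose in Ai47 aSMCs, which overlapped cortex (log2 fold change 4.66, SE 1.16, edgeR adjusted p = 0.0024), and in Ai14 aSMCs, which did not (6.17, SE 1.38, edgeR adjusted p = 0.00983). The values without cortex library 4 were 5.59 in Ai47 aSMCs and 6.81 in Ai14 aSMCs, and the Ai14 aSMC call was lost without either Ai14 aSMC library (6.24 and 5.55).

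Among the other ADAMTS proteases, Adamts10, which binds fibrillin, had 18.3, 51.9 and 89.5 CPM as lowest, median and highest in Ai47 aSMCs, 7.64 and 9.94 in Ai14 aSMCs, 0, 0.381 and 0 in astrocytes, and 0.250, 3.13 and 15.7 as lowest, median and highest in cortex. Ai47 aSMCs lay above all cortex libraries and the rise passed (log2 fold change 3.52, SE 0.75, edgeR adjusted p = 0.000737), with 4.54 without cortex library 6. In astrocytes Adamts10 had 3 counts, a 53.4-fold lower ratio with a 95% counting interval of 18.0 to 261, and it fell (edgeR adjusted p = 0.00613), with fitted log2 values of -5.44 over all libraries, -9.44 and -4.79 without astrocyte libraries 2 and 3, and -4.59 without cortex library 6. Adamts6, a homolog of Adamts10, had 41.1, 9.13 and 44.9 CPM in astrocytes, against 2.51, 3.64 and 5.34 as lowest, median and highest in cortex. The groups did not overlap, but the test fell short (log2 fold change 3.05, SE 1.20, edgeR adjusted p = 0.0542). In Ai47 aSMCs Adamts6 had 0 to 1.86 CPM, also without overlap with cortex and short of the threshold (-2.60, SE 1.12, edgeR adjusted p = 0.0574). Adamts12, Adamts16 and Adamts17 passed in no comparison, with group means between 0 and 6.66 CPM.

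Of the ADAMTS-like genes, Adamtsl3 had the largest difference of all members (chr7:82335694-82614450, plus strand, GRCm38). It had 2065, 2299 and 3235 CPM as lowest, median and highest in Ai47 aSMCs, 0.122 and 0.0303 in Ai14 aSMCs, 0, 0.127 and 29.5 in astrocyte libraries 1 to 3, and 0, 0.0945 and 0.912 as lowest, median and highest in cortex. Every Ai47 aSMC library was above all other libraries, and the Ai14 aSMC group had 5 counts in all. The log2 difference of Ai47 aSMCs was 13.49 against cortex (SE 0.77, edgeR adjusted p = 4.02e-10) and 14.87 against Ai14 aSMCs (SE 2.60, edgeR adjusted p = 0.000335), with 15.31 without cortex library 1 and 16.32 without Ai14 aSMC library 7. The raw counts in the 6 Ai47 aSMC columns differed by at most 4, and with these columns as 1 library both calls were kept (edgeR adjusted p = 0.013 against Ai14 aSMCs). In astrocytes the call (log2 fold change 5.38, SE 1.23, edgeR adjusted p = 0.00259) rested on library 3, and without it the value was -1.98 (edgeR adjusted p = 0.28). It was 7.01 without cortex library 1.

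Adamtsl1, also called punctin, ran the other way between the aSMC groups. It had 6.55, 28.8 and 41.9 CPM as lowest, median and highest in Ai47 aSMCs, 199 and 236 in Ai14 aSMCs, 0, 0.127 and 0 in astrocytes, and 0.378, 2.35 and 6.92 as lowest, median and highest in cortex. The Ai14 aSMCs were above all other libraries. Adamtsl1 rose against cortex in Ai47 aSMCs (log2 fold change 3.30, SE 0.66, edgeR adjusted p = 0.000428, and 3.91 without cortex library 4) and in Ai14 aSMCs (6.25, SE 0.83, edgeR adjusted p = 8.27e-05), and was lower in Ai47 than in Ai14 aSMCs (-2.98, SE 0.78, edgeR adjusted p = 0.00815). That last call was lost without either Ai14 aSMC library (-2.76 and -2.45), and was -2.32 without Ai47 aSMC library 1. In astrocytes its 1 count made a 98.6-fold lower ratio with a 95% counting interval of 17.3 to 3929 (edgeR adjusted p = 0.000821), with fitted log2 values of -6.27 over all libraries and -8.71 and -5.61 without astrocyte libraries 2 and 3. Adamtsl4, which binds fibrillin microfibrils, had 33.0 to 116 CPM in Ai47 aSMCs, 5.51 and 3.03 in Ai14 aSMCs, 0.0936, 0 and 6.11 in astrocytes and 0 to 2.62 in cortex. It rose in Ai47 aSMCs (log2 fold change 6.65, SE 0.86, edgeR adjusted p = 5.11e-06, and 7.78 without cortex library 3) and was not told apart from cortex in Ai14 aSMCs (2.48, SE 1.22, edgeR adjusted p = 0.262), although neither Ai14 aSMC library overlapped cortex.

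Adamtsl5 and Adamtsl2 were at lower levels. Adamtsl5 had 11.5 and 17.3 CPM in Ai14 aSMCs, 0.524 to 2.96 in Ai47 aSMCs, no counts in astrocytes and 0 to 1.91 in cortex. Its rise in Ai14 aSMCs (log2 fold change 4.51, SE 1.304, edgeR adjusted p = 0.0458) was lost without any 1 library of the comparison other than cortex library 2, with values of 4.07 to 4.71. Adamtsl5 also lost that call with DESeq2 size factors, with no filter and with a 1 CPM filter. In astrocytes it was at least 7.56-fold lower than in cortex (edgeR adjusted p = 0.0218), a call lost without astrocyte library 3. The bound was 4.19-fold without cortex library 2. Adamtsl2, a modulator of TGF-beta and microfibrils, had no counts in Ai14 aSMCs or astrocytes, 0.0728 to 0.730 CPM in Ai47 aSMCs and 0.189 to 10.98 in cortex. It was at least 30.1-fold lower in astrocytes than in cortex (edgeR adjusted p = 0.0114, and 0.0147 without cortex library 3, which held the most). The corresponding bound in Ai14 aSMCs, at least 51.7-fold lower, came with an edgeR adjusted p of 0.0607. Without cortex library 3 the bounds were 8.06-fold in astrocytes and 13.8-fold in Ai14 aSMCs.

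The MMPs moved in both directions. Mmp12, the metalloelastase that cuts elastin and is known as a macrophage product (chr9:7344381-7369499, plus strand, GRCm38), had 19.5, 34.1 and 49.4 CPM as lowest, median and highest in Ai47 aSMCs, 3.17 and 3.46 in Ai14 aSMCs, 5.24, 0 and 0.354 in astrocytes, and 0.517, 1.27 and 2.46 as lowest, median and highest in cortex. Every Ai47 aSMC library was above all others. Mmp12 rose in Ai47 aSMCs against cortex (log2 fold change 4.76, SE 0.57, edgeR adjusted p = 2.39e-06), and did not pass against Ai14 aSMCs (3.39, SE 1.36, edgeR adjusted p = 0.072). The 7 microglia and macrophage markers summed to 0.364 to 38.4 CPM in Ai47 aSMCs, against 110 to 1076 in cortex. Of 6 tested, 5 were lower than in cortex, and P2ry12 and Aif1 had no counts in Ai47 aSMCs. Ptprc was not told apart from cortex (log2 fold change -0.29, edgeR adjusted p = 0.839). The part of such cells in the Mmp12 level was not tested.

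Mmp19, an MMP of vessel wall and skin, had 5.40 to 7.41 CPM in Ai47 aSMCs, no counts in Ai14 aSMCs, 1 count in astrocytes and 0 to 2.32 in cortex. In Ai47 aSMC libraries 1, 2, 3 and 5 Mmp19 had near-equal raw counts of 130 to 134, which bears on its calls. It rose in Ai47 aSMCs against cortex (log2 fold change 2.56, SE 0.85, edgeR adjusted p = 0.0157) and was at least 139-fold higher than in Ai14 aSMCs (edgeR adjusted p = 0.0029, lost without Ai14 aSMC library 7). In Ai14 aSMCs it was at least 24.6-fold lower than in cortex (edgeR adjusted p = 0.0312, lost without either Ai14 aSMC library). In astrocytes it was 36.1-fold lower with a 95% counting interval of 6.13 to 1460 (edgeR adjusted p = 0.0162, and 0.0216 without astrocyte library 3, which held the count). Tmem198b overlaps 22.3% of the exon length of Mmp19 on the other strand.

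The membrane-type MMPs, which are anchored to the cell surface, did not share a direction. Mmp14, the activator of pro-Mmp2, had 10.99 to 23.3 CPM in Ai47 aSMCs, 16.3 and 17.7 in Ai14 aSMCs, 0.655, 3.55 and 0.253 in astrocytes and 1.51 to 9.31 in cortex. Mmp14 rose in Ai47 aSMCs (log2 fold change 1.97, SE 0.52, edgeR adjusted p = 0.00359) and not detectably in Ai14 aSMCs (1.79, SE 0.88, edgeR adjusted p = 0.257), though neither group overlapped cortex. The call in Ai47 aSMCs was lost with library totals in place of TMM (0.32, edgeR adjusted p = 0.689) and with the 6 Ai47 aSMC columns as 1 library (1.88, edgeR adjusted p = 0.394). Mmp24, the membrane-type MMP of neurons, was the reverse. Mmp24 had 0.0368, 0.0649 and 0.105 CPM as lowest, median and highest in Ai47 aSMCs, 0 and 0.152 in Ai14 aSMCs, 0.0936, 0 and 1.01 in astrocytes, and 0.945, 5.48 and 13.9 as lowest, median and highest in cortex. Both aSMC groups lay below all cortex libraries, and the fall passed in Ai47 aSMCs (log2 fold change -6.33, SE 0.83, edgeR adjusted p = 6.32e-06) and not in Ai14 aSMCs (-6.27, SE 1.97, edgeR adjusted p = 0.0642). The 7 neuron markers summed to 0.283 to 42.1 CPM in Ai47 aSMCs and 18.0 and 19.8 in Ai14 aSMCs, against 452 to 795 in cortex. In astrocytes Mmp24 fell by 4.03 on the log2 scale (SE 1.44, edgeR adjusted p = 0.0355), a call lost without astrocyte library 1 or 2 or cortex library 2 (-3.66, -3.58 and -3.81), and by 6.86 without astrocyte library 3.

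Mmp16 and Mmp17, also membrane-type, fell in astrocytes. Mmp16 had 10.99 to 17.2 CPM in Ai47 aSMCs, 0.609 and 0.303 in Ai14 aSMCs, 0, 0.888 and 0.556 in astrocytes and 1.134 to 18.8 in cortex. It was higher in Ai47 than in Ai14 aSMCs (log2 difference 4.83, SE 1.45, edgeR adjusted p = 0.0186), a call lost without either Ai14 aSMC library (5.77 and 4.85) and resting on near-equal raw counts. Against cortex it fell in astrocytes by 4.23 (SE 1.18, edgeR adjusted p = 0.00966), and by 5.05 without astrocyte library 2. Mmp17 had 0.446 to 20.6 CPM in Ai47 aSMCs, 33.8 and 34.9 in Ai14 aSMCs, 0.0936, 0.127 and 1.36 in astrocytes and 3.36 to 6.45 in cortex. Mmp17 fell in astrocytes by 3.16 on the log2 scale (SE 1.20, edgeR adjusted p = 0.0461), a call lost without astrocyte library 1 or 2 or cortex library 1 or 2 (-2.77, -2.84, -3.22 and -3.22) and at -5.50 without astrocyte library 3. In Ai14 aSMCs both libraries lay above all cortex libraries, with an edgeR adjusted p of 0.132. Mmp15 had 0 to 0.283 CPM in Ai47 aSMCs, against 2.74 and 0.849 in Ai14 aSMCs. That difference of -4.07 (SE 1.27, edgeR adjusted p = 0.0229) was lost without either Ai14 aSMC library (-2.64 and -4.26) or any 1 of Ai47 aSMC libraries 1, 2, 3, 4 and 6 (-3.62 to -3.32).

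The gelatinase Mmp2, which cuts denatured collagen and basement membrane, was low in every sorted group. Mmp2 had 0.618, 0.749 and 0.969 CPM as lowest, median and highest in Ai47 aSMCs, 0.0304 and 0.364 in Ai14 aSMCs, 0, 0.507 and 0 in astrocytes, and 0.342, 2.49 and 25.3 as lowest, median and highest in cortex. Ai47 aSMCs and cortex overlapped, and cortex library 5 stood apart at the top. The fall passed in Ai47 aSMCs (log2 fold change -3.08, SE 0.95, edgeR adjusted p = 0.0107), but the value without cortex library 5 was -1.63 (edgeR adjusted p = 0.0884). In astrocytes it passed too (-5.35, SE 1.78, edgeR adjusted p = 0.0253) and was lost without cortex library 5 (-4.23) or astrocyte library 1 or 3 (-4.93 and -4.85), and was -9.97 without astrocyte library 2. Mmp11, or stromelysin-3, had 2.90, 33.9 and 2.58 CPM in astrocytes, 7.79 and 4.30 in Ai14 aSMCs, 0.0737 to 0.456 in Ai47 aSMCs and 0 to 0.570 in cortex. It rose against cortex in astrocytes (log2 fold change 6.33, SE 1.28, edgeR adjusted p = 0.00101) and in Ai14 aSMCs (5.22, SE 1.3, edgeR adjusted p = 0.0184), where all libraries lay above cortex. The astrocyte value was 3.97 without astrocyte library 2 and 7.58 without cortex library 1. The Ai14 aSMC call was lost without either Ai14 aSMC library (4.57 and 5.37) or without cortex library 2, 3 or 6 (4.83, 4.71 and 4.80), and was 6.24 without cortex library 1.

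The aSMC groups were also set directly against each other. Of 31 tested members 4 were higher in Ai47 than in Ai14 aSMCs (Adamts4, Adamtsl3, Mmp16 and Mmp19) and 4 were lower (Adamtsl1, Mmp11, Mmp15 and Timp2), where 9.55% of all genes tested were higher and 16% lower. The share that passed in either direction was 25.8% of members and 25.6% of all genes. With library totals in place of TMM the split was 2 higher and 10 lower, and with the 6 Ai47 aSMC columns as 1 library only Adamtsl3 passed. With the aSMC groups fitted alone 10 members were higher and 5 lower, and with DESeq2 10 were higher and 3 lower. Mmp11 was lower in Ai47 aSMCs by a log2 difference of -5.29 (SE 1.25, edgeR adjusted p = 0.00413), which was -4.44 and lost without Ai14 aSMC library 7 and lay between -4.68 and -4.65 without Ai47 aSMC library 3, 4 or 5. Reporter, depth, mitochondrial share and TMM factor all differ with these groups, and their effects and that of the line cannot be told apart.

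The members higher in both aSMC groups than in cortex were Adamts1, Adamts2, Adamts5, Adamts8, Adamts14, Adamts15, Adamtsl1 and Timp3, 8 of the 17 in Ai47 aSMCs and of the 11 in Ai14 aSMCs. Both comparisons used the same cortex libraries, and the share of all genes higher in both was not computed. With the 6 Ai47 aSMC columns as 1 library, 10 of the 17 kept their call in Ai47 aSMCs. These were Adamts1, Adamts4, Adamts5, Adamts8, Adamts15, Adamtsl1, Adamtsl3, Adamtsl4, Mmp12 and Timp3, and they passed in all 22 alternatives. The calls lost were those of Adamts2, Adamts9, Adamts10, Adamts14, Mmp14, Mmp19, Timp1, Mmp2 and Mmp24. In Ai14 aSMCs the 5 calls that held in all 16 alternatives were Adamts1, Adamts8, Adamts15, Adamtsl1 and Timp3. In astrocytes 3 calls held in every alternative in which the gene was tested, Adamts20 in 19, Adamtsl2 in 15 and Mmp19 in 16.

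Levels can be compared between genes per kilobase of exon (CPM per kb). Summed over the 43 members the level was 643 ± 79.8 CPM per kb in Ai47 aSMCs (SD, n = 6), 359 ± 50.9 in Ai14 aSMCs (n = 2), 138 ± 126 in astrocytes (n = 3) and 44.6 ± 5.89 in cortex (n = 6). These sums rest on the TMM factors, 0.423 to 0.551 in Ai47 aSMCs and 2.21 in both Ai14 aSMC libraries. The order of the aSMC groups depends on that scaling, whereas shares within a library do not. TIMPs made up 20.8% of this sum in Ai47 aSMCs, 55.6% in Ai14 aSMCs, 71.4% in astrocytes and 64.2% in cortex. In Ai47 aSMCs Adamtsl3 alone was 49.8%, and without it the TIMP share was 41.4%. The leading members per kilobase were Adamtsl3 (322 CPM per kb), Timp3 (122) and Adamts1 (79.5) in Ai47 aSMCs, and Timp3 (145), Adamts1 (105) and Timp2 (54.9) in Ai14 aSMCs. In astrocytes they were Timp2 (96.2), Timp3 (12.4) and Adamts20 (9.96), and in cortex Timp3 (18.0), Timp2 (8.89) and Adamts1 (3.83). Astrocyte library 2 carried much of the astrocyte values, and without it the sum was 66.4 CPM per kb and the leading members were Timp2 (29.5), Timp3 (12.4) and Adamts1 (6.58), with Adamts20 at 4.67. The MMP share was 1.99% in Ai47 aSMCs, 3.31% in Ai14 aSMCs, 3.97% in astrocytes and 17.1% in cortex.

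**Figure D5:**
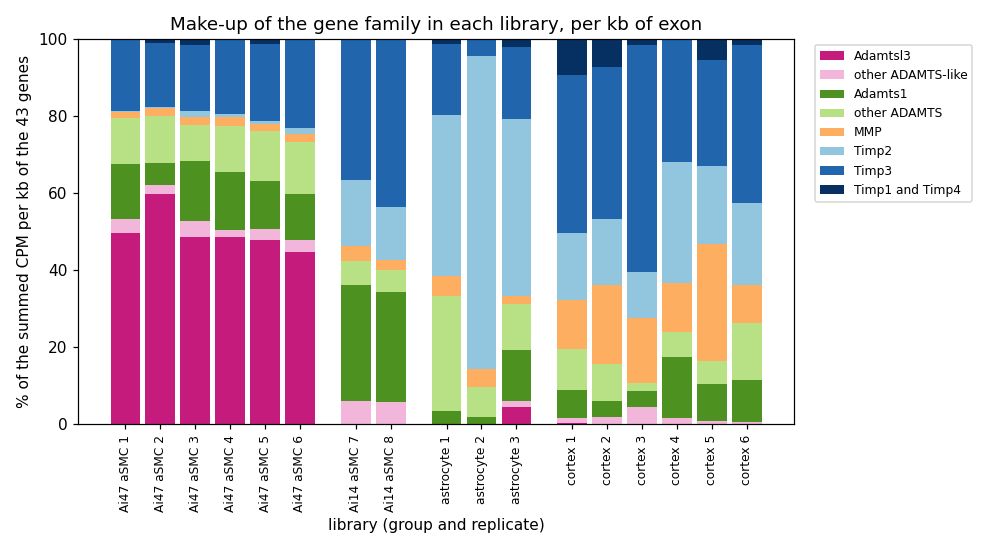
Share of the summed CPM per kb of the 43 members in each library, in percent, split by subfamily and leading gene. Adamtsl3 fills 44.7 to 59.6% of the bar in the 6 Ai47 aSMC libraries, and Timp2 fills 41.9 to 81.4% in the 3 astrocyte libraries.

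The genes around the family were read from 2 lists of 16, regulators of the proteases and their substrates or partners. Over all genes tested against cortex, 33.6% rose and 25% fell in Ai47 aSMCs, and 3.97% and 2% in Ai14 aSMCs. In astrocytes 14.6% rose and 19.8% fell. The counts per list are descriptions to be read beside these shares. Of the 11 regulators tested in Ai47 aSMCs, some rose and 4 fell against cortex. Those that rose included Plaur, the urokinase receptor (log2 fold change 5.56), Plat, tissue plasminogen activator (4.0), and Furin and Pcsk5, convertases that remove propeptides (3.76 and 3.27). Those that fell included Lrp1, a receptor that takes up several ADAMTS and TIMP proteins (-4.25), and Reck, a membrane inhibitor of MMPs (-3.46). In Ai14 aSMCs Plat rose (2.53) and none of 13 fell, and Reck had 0.406 to 2.20 CPM in Ai47 aSMCs, against 55.5 to 57.2 in Ai14 aSMCs. In astrocytes 2 of 13 rose, A2m, the protease trap alpha-2-macroglobulin (5.36), and Plat (3.69), and 3 fell, Lrp1 (-3.42) and Plau and Plaur, which had no counts there.

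Of the substrates and partners, 5 of 11 tested rose and 6 fell in Ai47 aSMCs, where 33.6% of all genes rose and 25% fell. Ltbp1, which holds latent TGF-beta in the matrix, stood at 8700 to 13100 CPM in Ai47 aSMCs, 384 and 401 in Ai14 aSMCs, 0.127 to 1.97 in astrocytes and 6.05 to 15.3 in cortex (log2 fold change 10.07 in Ai47 aSMCs and 5.11 in Ai14 aSMCs, both past the test). Fbln1, a cofactor of Adamts1 (5.30), Hapln3 (4.89), Eln, elastin (3.10), and Fn1, fibronectin (0.80), also rose in Ai47 aSMCs. Of the perineuronal matrix, the proteoglycans Bcan (-7.68) and Ncan (-3.31), the link proteins Hapln1 (-7.60) and Hapln4 (-8.49) and the glycoprotein tenascin-R, Tnr (-2.31), fell, as did Fbn1 (-2.55). In Ai14 aSMCs 1 of 13 rose, Ltbp1, and 2 fell, Hapln4 (-9.57 as fitted, with no counts in Ai14 aSMCs) and Ncan (-5.44). In astrocytes none of 13 rose and 7 fell, where 14.6% of all genes rose and 19.8% fell. Of the related ADAM proteases, which shed membrane proteins, 5 of 9 tested rose and 1 fell in Ai47 aSMCs. Adam10 stood at 666 to 1030 CPM in Ai47 aSMCs, 16.9 and 21.9 in Ai14 aSMCs and 12.4 to 53.3 in cortex. None of 10 passed in Ai14 aSMCs, and 0 rose and 4 fell in astrocytes.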

How the data were processed

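RNA from 17 mouse samples (6 Ai47 aSMC, 2 Ai14 aSMC, 3 astrocyte, 6 cortex) was sequenced, and the authors deposited raw counts per gene, which are the only unit used here. The labels list Salmon 1.4.0 and Trim Galore 0.6.7 among the tools, the build GRCm38 and NuGEN library kits, while the published methods describe TopHat and htseq-count after TruSeq kits. The pipeline behind the matrix, and its strand setting, could not be settled from these sources. If reads were counted to transcripts by Salmon, reads shared between genes were split by estimate, which could move low members.

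Counts were analysed as deposited in edgeR 4.0.16 (R 4.3.3, limma 3.58.1) by the quasi-likelihood F-test, after filterByExpr with a minimum count of 10 and TMM scaling. Ai47 aSMC against cortex was fitted on these 12 samples and the other comparisons on all 17, each sample set sharing 1 estimate of spread. P-values were adjusted by Benjamini-Hochberg over all genes tested, with a threshold of 0.05. SE was the log2 fold change over the square root of F. Counting intervals are 95% exact and, like the floors of 3 counts, cover counting error only. Members were named where a group mean reached 1 CPM or a test passed. Exon lengths came from GENCODE M21 and windows from RefSeq, GRCm38.p6. The members and lists were chosen with earlier results of these data known. Alternatives were DESeq2 1.42.0, DESeq2 size factors, library totals, other filters, other sample sets, the replicate block, 1 library left out, the 6 Ai47 aSMC columns as 1 library, and, added after the data were seen, cortex libraries 1 and 2 left out. Procedures were tested on simulated counts. For 1 gene of the regulator list the results are not reported here. Protein sequences were not analysed here, nor were Mmp1a, Mmp1b, Mmp3, Mmp7, Mmp10, Mmp13, Mmp20 and Mmp27. Tables and plots were made in Python 3.11.15 (matplotlib 3.10.9, pandas 2.3.3, scipy 1.17.1).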

Additional observations from a re-analysis of the deposited data

Results flagged for a closer look

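In groups of 6 libraries a single library stood apart from the other 5 by more than Dixon's 95% critical value for 10 members. Chance gives about 1 such group in 20 for normally distributed values, and 44 were tested. CPM was used without a log scale and every library that stood apart was the highest, so that rate may not hold. In cortex these were Adamts1 in library 4 (43.1 CPM, next 21.4), Adamts10 in library 6 (15.7, next 4.9), Adamts5 in library 6 (13.6, next 2.28), Adamts9 in library 1 (6.04, next 1.38), Adamtsl2 in library 3 (11, next 1.71), Mmp2 in library 5 (25.3, next 7.51), Timp2 in library 4 (62.5, next 33.3) and Timp3 in library 3 (249.0, next 144.0). In Ai47 aSMCs these were Adamts17 in library 3 (19.2, next 0.0728) and Adamts20 in library 5 (12.9, next 1.26).

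The change against cortex differed between Ai47 and Ai14 aSMCs for 8 members, as tested by the edgeR contrast of the aSMC groups. The log2 difference of Ai47 over Ai14 aSMCs was 14.9 for Adamtsl3, 9.75 for Mmp19 (as fitted, with no counts in Ai14 aSMCs), 4.83 for Mmp16 and 3.89 for Adamts4. It was -2.98 for Adamtsl1, -3.33 for Timp2, -4.07 for Mmp15 and -5.29 for Mmp11.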

How the results depend on the processing

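For Ai47 aSMCs against cortex, 17 members higher became 10 with the 6 Ai47 aSMC columns as 1 library, and 2 lower became 4 with library totals, 5 with no filter, 1 with a 1 CPM filter, 5 with all 17 samples fitted and 0 with 1 library. For Ai14 aSMCs against cortex, 11 higher became 7 with DESeq2 size factors and 6 without cortex libraries 1 and 2, and 1 lower became 2 with DESeq2 size factors, 0 with library totals, 6 with DESeq2 and 4 with the 2 groups fitted alone. For astrocytes against cortex, 12 lower became 2 with the groups alone. For Ai47 against Ai14 aSMCs, 4 higher became 2 with library totals, 10 with DESeq2, 10 with the groups alone and 1 with 1 library, and 4 lower became 10 with library totals and 0 with 1 library. Leaving out 1 library in turn gave 14 to 17 higher and 1 to 3 lower (Ai47 aSMCs against cortex), 5 to 8 and 0 to 1 (Ai14 aSMCs), 3 to 4 and 9 to 15 (astrocytes), and 1 to 6 and 1 to 4 (Ai47 against Ai14 aSMCs). The direction turned for Mmp12 in astrocytes without library 1 (-2.86), Adamtsl3 in astrocytes without library 3 (-1.98, and up to 7.01 without other libraries) and Adamts17 between the aSMC groups without Ai47 aSMC library 3 (-5.38). The cause was not tested. Library totals moved the median log2 fold change of all genes to -1.13, 1.18, 0.8 and -2.59 in the 4 comparisons in that order. Same-numbered libraries did not deviate together (r from -0.0315 to 0.0111 for Ai47 aSMC and cortex, from -0.0309 to 0.0183 for astrocyte and cortex, own number best in 1 each). This speaks only to the numbering, and samples that share mice under other numbers would not be seen. With the replicate block 17 members were higher and 2 lower in Ai47 aSMCs (1 of the lower shared). In astrocytes it gave 1 higher and 0 lower, where the same 6 libraries with no replicate block gave 2 and 0.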
